A study of Mus musculus with 3 samples.

Results

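The 4 genes described here encode caseins, the main proteins of milk: Csn1s2a, Csn2, Csn1s1 and Csn3, which are listed on the arrays under these symbols or under the older names Csng, Csnb, Csna and Csnk. They were taken by name, with all of their probes, and make up 4 of the 27389 genes and 5 of the 41174 probes on the arrays. The set was chosen by measured values, the treated over untreated ratios of these same arrays: Csn1s2a had the highest ratio of treated to untreated cells at 12 and 24 h and the Csn2 spot saturated at 24 h. The casein ratios below are therefore a description with no test.

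Caseins are secreted phosphoproteins that bind calcium. The alpha and beta caseins (Csn1s1, Csn1s2a, Csn2) form the calcium-rich core of milk micelles and kappa casein (Csn3) coats the surface and keeps the micelles in solution. In the lactating mammary gland their genes are transcribed when prolactin, through its receptor and the kinase JAK2, activates the transcription factor STAT5, which acts together with the glucocorticoid receptor and C/EBP beta. Receptors of blood cells, that of GM-CSF among them, use the same JAK2 and STAT5 pathway, and casein transcripts have also been found in mouse cytotoxic T cells.

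The samples were MigA9 cells, a mouse hematopoietic line transformed by Hoxa9, a homeobox transcription factor, and grown in RPMI-1640 medium with fetal calf serum and medium conditioned with GM-CSF. Cells that had received 2.5 µM DB818, a compound that binds the minor groove of DNA and is known from work on blocking HOXA9, for 6, 12 or 24 h were labelled with Cy5. Untreated cells of the same line were labelled with Cy3, and each treated sample was hybridised with untreated RNA to 1 array of its own. All groups share the Hoxa9 transformation and the GM-CSF supplement, all come from 1 cell line, and the treatment is given without a stated vehicle in the controls.

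Dyes were not swapped and each time has 1 array. Their number limits the precision, and a difference at 1 time has no replicate check. The labels do not say whether the untreated RNA was 1 preparation or several. Median signals over all probes were 71.8 to 72.1 in the treated channel and 78.2 to 79.3 in the untreated channel, and 11450 to 11565 genes were measured, meaning well above background in both channels and saturated in neither. Repeated spots of the same probe had log2 ratios with an SD, covering spotting and scanning only, of 0.0435, 0.0336 and 0.0508 at 6, 12 and 24 h. All 14 markers of myeloid and other hematopoietic cells on the array were above background in both channels at each time. They include Hoxa9, by which the line was transformed, so its detection does not bear on cell type. RNA came from whole cultures, so fewer cells with a transcript and less of the transcript per cell cannot be told apart.

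The promoters of Csn1s1, Csn2 and Csn1s2a are shown because a STAT5 site in the proximal promoter is the textbook feature of casein genes. Each sequence runs 5′ to 3′ on the strand of the gene, from 250 bases before the annotated start to 50 after it (RefSeq, GRCm38.p6), and capitals mark the letters TTCNNNGAA, the core to which STAT5 binds. The windows lie at chr5:87665958-87666257 on the plus strand for Csn1s1, chr5:87699376-87699675 on the minus strand for Csn2 and chr5:87774200-87774499 on the plus strand for Csn1s2a.
Csn1s1: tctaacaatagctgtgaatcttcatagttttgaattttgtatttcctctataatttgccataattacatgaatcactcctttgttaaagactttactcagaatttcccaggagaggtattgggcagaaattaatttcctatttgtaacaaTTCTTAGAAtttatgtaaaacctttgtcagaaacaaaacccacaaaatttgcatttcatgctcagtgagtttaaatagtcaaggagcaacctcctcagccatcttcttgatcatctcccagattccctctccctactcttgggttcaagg
Csn2: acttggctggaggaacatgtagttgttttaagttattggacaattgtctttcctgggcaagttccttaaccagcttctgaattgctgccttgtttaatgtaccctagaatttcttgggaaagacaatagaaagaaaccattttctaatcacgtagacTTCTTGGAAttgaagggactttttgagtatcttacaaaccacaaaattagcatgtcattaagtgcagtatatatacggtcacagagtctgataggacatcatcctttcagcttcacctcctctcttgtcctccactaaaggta
Csn1s2a: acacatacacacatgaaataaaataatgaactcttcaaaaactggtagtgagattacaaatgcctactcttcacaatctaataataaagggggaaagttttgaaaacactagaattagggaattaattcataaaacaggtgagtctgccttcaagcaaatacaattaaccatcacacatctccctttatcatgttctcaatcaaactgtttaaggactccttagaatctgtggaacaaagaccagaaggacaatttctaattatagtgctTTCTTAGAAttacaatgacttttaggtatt
Each window held 1 match to this palindrome, which reads alike on both strands. The match spans -100 to -92 from the start in Csn1s1, -93 to -85 in Csn2 and 21 to 29 in Csn1s2a, downstream of the start. Of 32841 promoter windows of the same length, for 27018 genes, 8.30% held the motif. The letters TTTAC, a core bound by posterior Hox proteins, were sought on both strands and were found 2 times in Csn1s1, with no overlap with the STAT5 core, and in neither of the others. They were present in 31.5% of all windows. No other core of Hox proteins was sought, so windows without TTTAC may hold one. A and T made up 67.7% of the Csn1s2a window, 64.7% of the Csn1s1 window and 61.3% of the Csn2 window, against a median of 47.3% over all windows, and more than in 98.0, 95.7 and 91.6% of windows. A match is a run of letters and not a measured binding site.

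Csn1s2a, the alpha-S2-like casein once called gamma casein, gave a treated signal that was higher at each later time, while its raw untreated signals lay close together. The mean signal of its 1 probe (A_51_P422143) was 961, 1412 and 2576 in cells treated for 6, 12 and 24 h, against 349, 322 and 336 in the untreated channels of the same arrays. The SD over the pixels of the spot was 80.7, 253 and 214 in the treated channels and 24.7, 72.2 and 22.5 in the untreated channels. The 24 h treated signal was 2.68 times the 6 h treated signal, whereas the untreated signals lay within 1.09-fold of each other. Raw signals of both dyes are not on 1 scale, so the channels were compared only after normalisation.

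The normalised log2 ratio of Csn1s2a, treated over untreated, was 0.39, 1.10 and 1.79 at 6, 12 and 24 h, or 1.31-fold, 2.14-fold and 3.46-fold higher in treated cells. Its ratio was the 99th highest of 11450 genes at 6 h, the highest of 11478 at 12 h and the highest of 11565 at 24 h. It was at least 2-fold higher at 12 and 24 h, as were 0.00871 and 0.0346% of all measured genes, and Csn1s2a is counted among them. The scanner's own log2 ratios were 0.39, 1.19 and 1.96, with the scanner's errors of 0.21, 0.23 and 0.27.

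**Figure D1:**
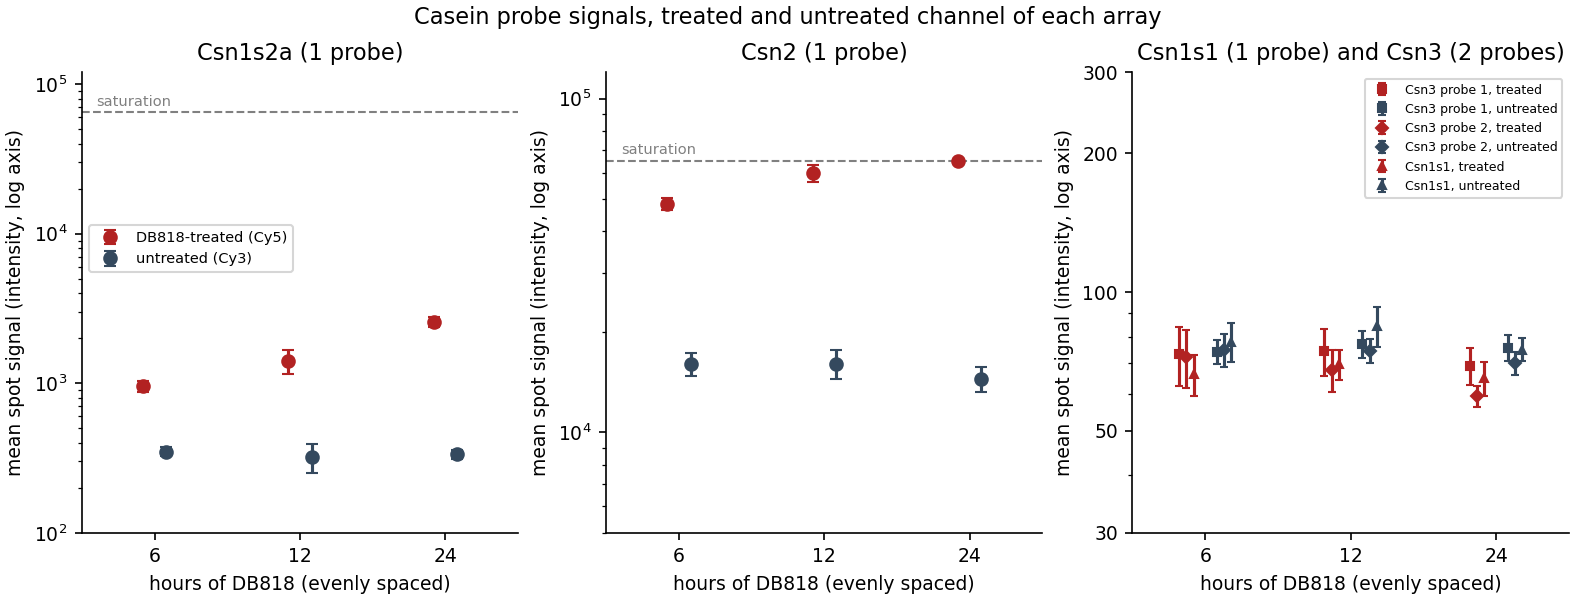
Mean spot signal of each casein probe (intensity, log axis) in the DB818-treated channel (red) and the untreated channel (dark blue) of the arrays at 6, 12 and 24 h. Bars are the SD over the pixels of 1 spot and the dashed line is the saturation value of the treated channel. The treated signal of Csn1s2a was 2576 at 24 h beside untreated signals of 322 to 349, Csn2 reached saturation in treated cells, and Csn1s1 and Csn3 lay near background in both channels.

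The change of the Csn1s2a ratio between arrays, in which a dye bias that is the same on each array cancels, was 0.71 (log2) between 6 and 12 h and 0.69 between 12 and 24 h. The difference from 6 to 24 h, 1.40, was the highest of the 11080 genes measured on both arrays. The steps between 6 and 12 h and between 12 and 24 h ranked 4th of 11114 and 1st of 11105. Csn1s2a was chosen for its ratios at 12 and 24 h, so the ranks of these differences are not independent of the choice. On quantile-normalised channels, the treated log2 level was 9.38, 9.88 and 10.72 and the untreated level 8.99, 8.78 and 8.93. The treated channel thus differed by 1.34 between 6 and 24 h (rank 26 of 10957 genes measured on all arrays) and the untreated channel by -0.07. Between 6 and 12 h the untreated channel, which was lowest at 12 h, differed by -0.214, and this fall makes up part of the 0.71. It lay below the 5th percentile of that difference over all genes, -0.204.

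Csn2, the beta casein, was bright in treated and untreated cells alike. The mean signal of its 1 probe (A_51_P446395) was 48464, 59881 and 65018.5 in cells treated for 6, 12 and 24 h, against 16037.5, 16039 and 14467 in untreated cells. At 24 h 16 of the 26 pixels of the treated spot were saturated, at a saturation value of 65251, and at 6 and 12 h 0 pixels were. The pixel SD was 2023, 3591 and 422 in the treated channels and 1259, 1576 and 1210 in the untreated channels. Csn2 and Csn1s2a were thus well above background in untreated cells as well.

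The log2 ratio of Csn2 was 0.02 at 6 h and 0.43 at 12 h, or 1.01-fold and 1.35-fold higher in treated cells. At 24 h the saturated treated channel gave only a bound, at least 1.49-fold higher (0.58 on the log2 scale). A bound was the normalised log2 level of the brighter channel over that of the dimmer one, a saturated spot standing at its measured value and a spot not well above background at no less than the lowest signal that was. Where such a dim spot read above that lowest signal, the value is a plain ratio near background. Bounds are open to dye bias, since no array had the dyes reversed. The 6 h ratio ranked 6083rd of 11450 genes and the 12 h ratio 55th of 11478, where 1.39% of genes were at least 25% higher in treated cells. The ratio differed by 0.41 between 6 and 12 h, the 22nd highest of 11114 genes. With the median in place of the mean of the pixels, the 6 h ratio was -0.02, so Csn2 had no direction at 6 h.

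**Figure D2:**
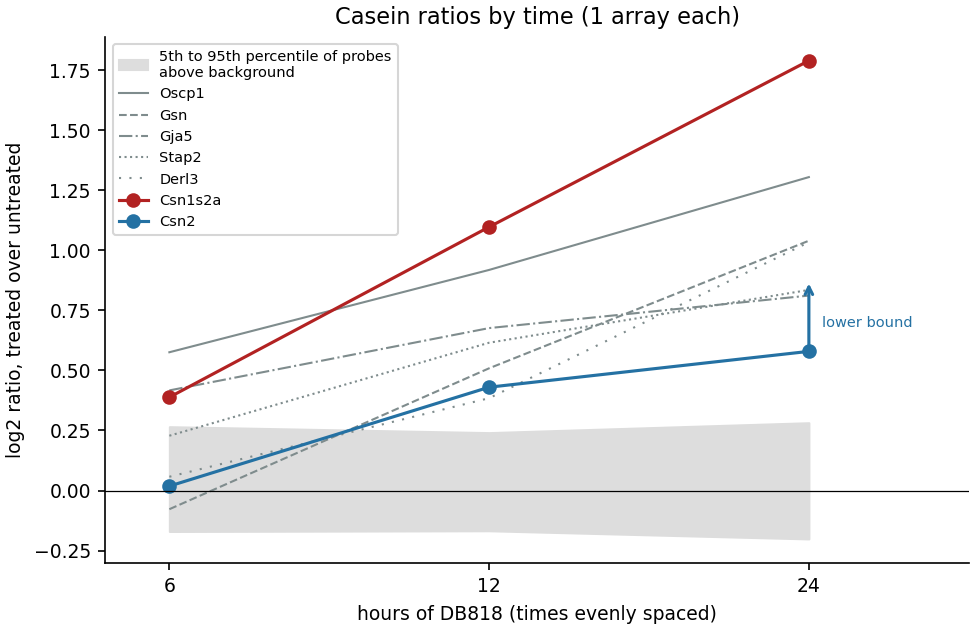
Log2 ratio of treated over untreated cells (vertical axis) against hours of DB818, drawn evenly spaced, for Csn1s2a (red), Csn2 (blue) and the 5 genes whose ratios lay nearest to those of Csn1s2a (grey lines). Each point is 1 array, the arrow marks the lower bound for the saturated Csn2 spot at 24 h, and the band spans the 5th to 95th percentile of probes above background. Csn1s2a stood at 0.39, 1.10 and 1.79 and Csn2 at 0.02, 0.43 and at least 0.58.

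Because the treated and untreated dyes differ with brightness, each casein was also set beside probes of like brightness on the same array, taken within 0.5 log2 units of its mean intensity. At 6 h 67 of 2241 such probes had a higher ratio than Csn1s2a. At 12 and 24 h, where Csn1s2a was chosen for the highest ratio of all genes, that number is fixed by the choice. For Csn2 the numbers were 35 of 84 at 6 h, 0 of 88 at 12 h and 0 of 90 at 24 h. Of those bright probes 9, 21 and 23 were themselves saturated, which holds their ratios down. The highest ratio among them at 12 h was 0.26, against 0.43 for Csn2. The set was chosen with these ratios known, so the ranks and numbers of Csn2 are not independent of the choice. Saturation also holds down the ratio of Csn2 itself at 24 h.

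The ratios themselves depended on the scaling. With each array centred on the median of its measured probes in place of loess, Csn1s2a stood at 0.59, 1.29 and 2.06 and Csn2 at 0.69, 0.99 and at least 1.252. The distance from the median of probes of like brightness moved less, in part by construction, since a shift that probes of like brightness share cancels in it. For Csn1s2a that distance was 0.36, 1.08 and 1.76 with loess, 0.36, 1.09 and 1.77 with median centring and 0.40, 1.198 and 1.97 with the scanner's processed signals. For Csn2 it was 0.03, 0.45 and at least 0.61 with loess and 0.03, 0.44 and at least 0.61 with median centring.

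**Figure D3:**
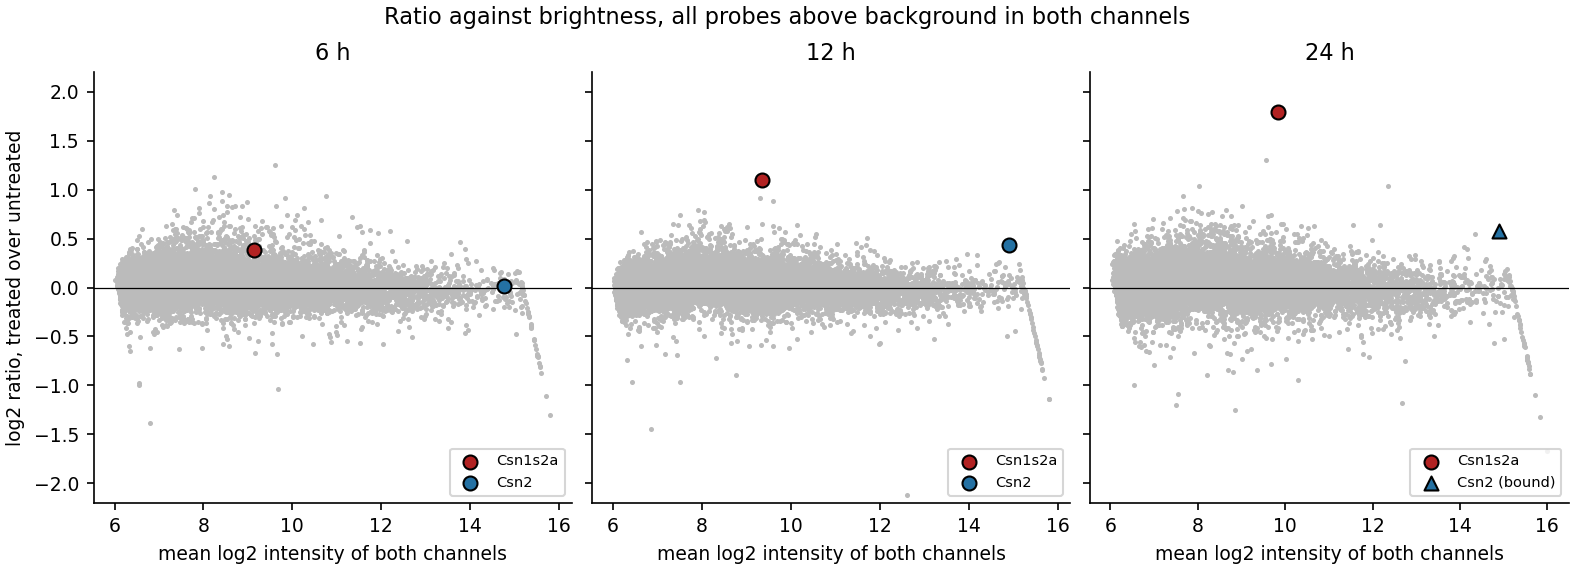
Log2 ratio of treated over untreated cells (vertical axis) against the mean log2 intensity of both channels for every probe above background in both channels (grey), with Csn1s2a (red) and Csn2 (blue, a triangle where it is a bound), 1 panel for each time. Csn1s2a stood at 0.39, 1.10 and 1.79, and 67 of 2241 probes of like brightness had a higher ratio at 6 h. The falling streak at the right edge is made of saturated treated spots, and the probe of Hgf, at -5.92 on the 12 h array, lies below the axis.

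Csn1s1 and Csn3, alpha-S1 and kappa casein, gave almost no signal. The probe of Csn1s1 (A_51_P491378) read 66.3, 69.6 and 65.0 in treated cells and 78.0, 84.4 and 75.0 in untreated cells, over local backgrounds of 54 in the treated channel and 40 to 42 in the untreated channel. Only the untreated signal at 12 h was well above background. On that array the plain ratio was 1.16-fold lower in treated cells (log2 -0.21, and -0.17 with the median of pixels). It is a ratio near background and not a firm bound. The probes of Csn3 read 73.3, 74.4 and 69.2 (A_51_P227275) and 72.2, 67.8 and 59.4 (A_51_P227280) in treated cells, against 74.2, 77.1 and 75.7 and 74.8, 74.4 and 70.2 in untreated cells. Neither Csn3 probe was well above background in either channel at any time, so no ratio is given. Of the 4 caseins, 1 was thus measured on all 3 arrays, 2 on at least 1 array and 2 on none.

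The casein genes lie next to each other in the genome, and the neighbours measured on all arrays had ratios close to 0. In GRCm38.p6 the cluster spans 266 kb of chromosome 5, with Csn1s1 at chr5:87666208-87682578, Csn2 at chr5:87692619-87699429, Csn1s2a at chr5:87774450-87788798 and Csn3 at chr5:87925579-87932550. Csn1s2b, a further alpha-S2-like casein at chr5:87808121-87824421, was not well above background in either channel on any array. Within 1 Mb on either side lie 65 RefSeq genes other than the 4 caseins, 35 of them protein coding, and 32 have probes on the arrays. Of these, 5 were measured on all arrays, and 0 of the 5 passed limma's test of the mean over the 3 times, under which 20% of all genes rose and 7.86% fell. Ythdc1, a reader of methylated adenosine in RNA, had ratios of -0.07, -0.14 and 0.01 at 6, 12 and 24 h. Utp3 (0.03, 0.01 and -0.01), Grsf1 (0.08, -0.11 and -0.03), Mob1b (0.11, 0.03 and 0.07) and Dck, the deoxycytidine kinase (0.04, -0.01 and -0.02), lay as close to 0. With median centring Mob1b and Dck had means of -0.48 and -0.30. Ugt2b34 was measured at 24 h alone (-0.05) and Sult1b1 at 12 h alone (0.02). The nearest gene with a ratio at 24 h was 622 kb away from the cluster, so little is known of the genes next to the caseins.

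**Figure D4:**
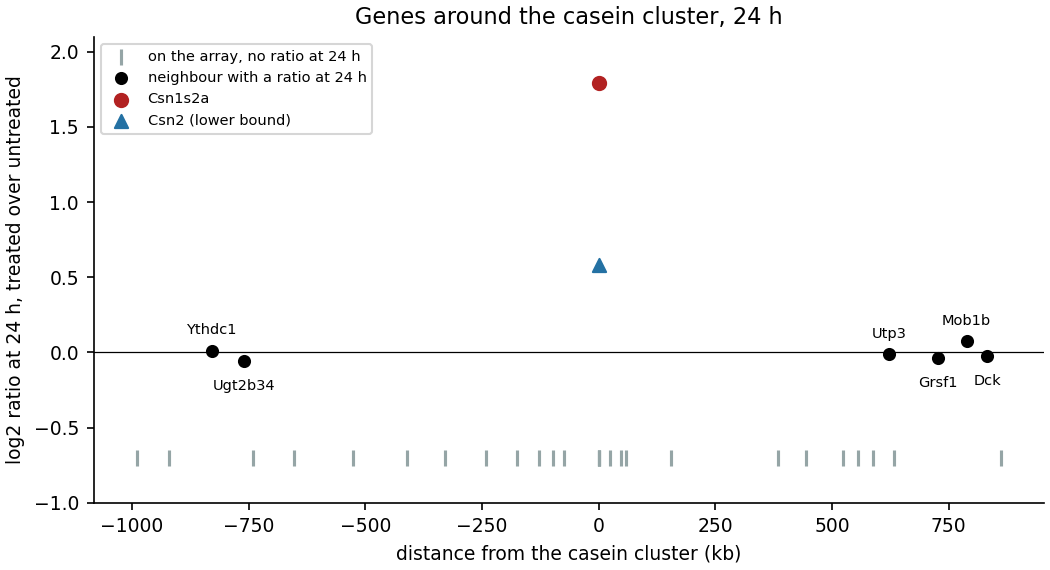
Log2 ratio of treated over untreated cells at 24 h (vertical axis) against the distance from the casein cluster in kb for the genes within 1 Mb on either side. Black points are neighbours with a ratio, ticks are genes on the array without one, and Csn1s2a (red) and Csn2 (blue, a lower bound) are drawn at 0. The neighbours lay between -0.05 and 0.07, against 1.79 for Csn1s2a.

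The genes whose 3 ratios lay nearest to those of Csn1s2a were sought by Euclidean distance over the 3 times among 10957 genes. Oscp1 was the nearest, at a distance of 0.55, with ratios of 0.58, 0.92 and 1.31. Gsn, the actin-severing protein gelsolin, followed at 1.06 with ratios of -0.08, 0.51 and 1.04. Gja5, a connexin of gap junctions, had 0.42, 0.68 and 0.81 (distance 1.07) and Stap2, a signalling adaptor, 0.23, 0.62 and 0.84 (distance 1.08). Derl3, a factor of protein degradation at the endoplasmic reticulum, had 0.06, 0.38 and 1.03 (distance 1.09). All 5 had lower ratios than Csn1s2a at 12 and 24 h, which the choice of Csn1s2a fixed, and Oscp1 and Gja5 had higher ones at 6 h.

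Other genes of milk were tested through the mean of their 3 log2 ratios, which takes the 3 times as replicates. Neither a constant dye bias nor untreated RNA shared by the arrays enters that spread, so the p-values may be too small. Of 30 genes of milk proteins and milk fat other than caseins, 11 were measured on all arrays, and 0 rose, 1 fell and 10 did not pass, where 20% of all genes rose and 7.86% fell, with a median mean ratio of 0.04 against 0.03 over all genes. The whey proteins Wap and Lalba, the mucin-like Glycam1 and butyrophilin (Btn1a1) were not well above background in either channel on any array. Lactoperoxidase (Lpo) and the fatty acid binding protein Fabp3 were above background in treated cells on all 3 arrays and in untreated cells on none, as were 260 of all 27389 genes, while 19 were so in untreated cells alone. The probe of Lpo read 79.1, 82.2 and 79.7 in treated cells at 6, 12 and 24 h, against 75.4, 75.7 and 71.0 in untreated cells. Its normalised ratios were 1.10-fold, 1.12-fold and 1.24-fold. That of Fabp3 read 78.4, 76.8 and 78.0 in treated cells, against 76.9, 81.0 and 78.9 in untreated cells. Its normalised ratios were 1.05-fold at 6 and 24 h and 0.99-fold at 12 h. The desaturase Scd1 was above background in treated cells on 3 arrays and in untreated cells on 2, with log2 ratios of 0.34 at 12 h and 0.32 at 24 h. The lipase Cel was so in untreated cells alone on all 3. Its ratios were 1.16-fold and 1.32-fold lower in treated cells at 6 and 12 h, and at least 1.12-fold lower at 24 h. The signals of Lpo, Fabp3 and Cel lay over local backgrounds of 53 to 54 in the treated channel and 40 to 42 in the untreated channel. Their folds are thus ratios near background, given without an error. Spp1, the phosphoprotein osteopontin, which is abundant in milk and is made by myeloid cells too, had ratios of -0.23, -0.90 and -1.26 and fell (mean -0.79 ± 0.17, SE, n = 3 arrays, limma adjusted p = 0.0164). Its call was lost without the 12 h array (-0.74) and with the scanner's processed signals (-0.98). The glucose transporter Slc2a1 had -0.07, 0.44 and 0.42, Mfge8, a protein of the milk fat globule and of phagocytes, -0.08, -0.08 and -0.31, and Saa3, a serum amyloid found in colostrum, 0.07, -0.04 and 0.43, and none of these 3 passed. Nor did the desaturase Scd2 (mean -0.10, but 0.39 with median centring) or the lipoprotein lipase Lpl (mean 0.09).

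Spp1 was also the 1 measured member among 15 relatives of the caseins on the arrays, secreted calcium-binding phosphoproteins of milk, saliva, teeth and bone. The list for casein secretion held 8 genes, of the Fam20 family, calcium pumps and a zinc transporter. Of these 5 were measured, and 0 rose, 2 fell and 3 did not pass, where 20% of all genes rose and 7.86% fell. Fam20c, the Golgi kinase that phosphorylates caseins, had ratios of -0.09, -0.17 and -0.35 and fell (mean -0.20 ± 0.05, limma adjusted p = 0.0268). That call was lost without the 12 h array (-0.22), without the 24 h array (-0.13), with the scanner's processed signals (-0.33) and with median centring (-0.11). Slc39a7, a zinc transporter of the secretory pathway, fell (mean -0.23 ± 0.03, limma adjusted p = 0.00669) but stood at 0.28 with median centring, and neither its mean of -0.24 without the 12 h array nor that of -0.20 with the scanner's processed signals passed. The calcium pumps Atp2b1 (0.08) and Atp2c1 (0.03) and the kinase Fam20b (0.04) did not pass, and the pumps stood at -0.20 and -0.43 with median centring.

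Upstream of STAT5, the prolactin receptor Prlr was not well above background in either channel on any array. The growth hormone receptor Ghr was so in treated cells on 3 arrays and in untreated cells on 2. The erythropoietin receptor Epor was so on 1 array in each channel, and neither was measured on all arrays. Of 19 receptors and kinases 10 were measured, and 4 rose, 3 fell and 3 did not pass, where 20% of all genes rose and 7.86% fell. Kit, the receptor of stem cell factor, had ratios of 0.31, 0.35 and 0.31 and rose (mean 0.32 ± 0.03, limma adjusted p = 0.00338). Il3ra (mean 0.18 ± 0.03, limma adjusted p = 0.00879) and Csf2ra (0.17 ± 0.03, limma adjusted p = 0.0104), the alpha chains of the IL-3 and GM-CSF receptors, rose as well. Csf2rb, the beta chain that both receptors share, had -0.09, -0.06 and -0.17 and did not pass (mean -0.11 ± 0.03, limma adjusted p = 0.0580). Of the kinases, Jak2, which carries the signal of the prolactin and GM-CSF receptors, had 0.02, 0.07 and 0.31 and did not pass (mean 0.14 ± 0.06, limma adjusted p = 0.116), and Tyk2 (mean -0.25 ± 0.04, limma adjusted p = 0.00803) and Jak3 (-0.18 ± 0.04, limma adjusted p = 0.0164) fell. Without the 12 h array Il3ra (0.19), Csf2ra (0.15) and Jak3 (-0.17) lost their calls, and Il3ra also did with the scanner's processed signals (0.16).

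All 12 STAT5 genes and inhibitors of the pathway were measured, and 5 rose, 0 fell and 7 did not pass, where 20% of all genes rose and 7.86% fell. Stat5b had ratios of 0.21, 0.30 and 0.30 and rose (mean 0.27 ± 0.03, limma adjusted p = 0.00485). Stat5a, the form most needed for casein transcription in the mammary gland, had -0.01, -0.08 and 0.04 and did not pass (mean -0.02 ± 0.03, limma adjusted p = 0.723; 0.11 with median centring). Cish and the Socs genes, feedback inhibitors of cytokine receptors, are themselves textbook targets of STAT5. Cish had -0.12, -0.04 and 0.00 and Socs2 0.56, 0.19 and 0.05, and neither passed, Cish standing at a mean of 0.34 with median centring. Of the 2 probes of Socs2, A_51_P107362 read 0.56, 0.50 and 0.28. The 6 h ratio of Socs2 equals that of this probe alone, so its values do not rest on the same probes at each time. Socs3 had 0.06, 0.43 and 0.47 and rose (mean 0.32 ± 0.08, limma adjusted p = 0.0251), and Socs1 had 0.07, 0.14 and 0.23 and rose (mean 0.14 ± 0.04, limma adjusted p = 0.0320). The phosphatase Ptpn11 rose too (0.15). Without the 12 h array Socs3 (0.26), Socs1 (0.15) and Ptpn11 (0.16) did not pass, and with the scanner's processed signals none of these 3 did. Ptpn11 also lost its call without the 6 h array (0.10) and with its brightest probe alone (0.05), and Socs3 (0.24) and Socs1 (0.10) did so without the 24 h array. Stat5b passed under every alternative run.

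Of 18 further targets of STAT5 from textbook knowledge 13 were measured, and 3 rose, 4 fell and 6 did not pass, where 20% of all genes rose and 7.86% fell. Id1, an inhibitor of differentiation factors, had ratios of 0.35, 0.56 and 0.63 and rose (mean 0.51 ± 0.05, limma adjusted p = 0.00407). The cyclin Ccnd2 (mean 0.28 ± 0.03, limma adjusted p = 0.00407) rose, and the survival gene Bcl2l1 rose (0.20 ± 0.03, limma adjusted p = 0.00632) but stood at -0.18 with median centring. The kinase Pim1 had -0.29, -0.22 and -0.26 and fell (mean -0.26 ± 0.03, limma adjusted p = 0.00469), and the cyclin Ccnd3 fell (-0.14 ± 0.04, limma adjusted p = 0.0463) but stood at 0.15 with median centring. Without the 12 h array Bcl2l1 (0.19) and Ccnd3 (-0.16) lost their calls. Both also did without the filter on dim probes (0.06 and -0.14), and Ccnd3 did without the 6 h array (-0.08) and with the scanner's processed signals (-0.17). Id2 had -0.04, 0.25 and 0.31 and did not pass.

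Among 23 other regulators of casein transcription 17 were measured, and 6 rose, 2 fell and 9 did not pass, where 20% of all genes rose and 7.86% fell. Runx1 (mean 0.22 ± 0.03, limma adjusted p = 0.00632), Cebpb, which encodes C/EBP beta (0.18 ± 0.04, limma adjusted p = 0.0173), and Brca1 (0.17 ± 0.04, limma adjusted p = 0.0231) rose. Nfix, of the nuclear factor I family, and Notch1 rose (0.16 and 0.15) but stood at -0.24 and -0.04 with median centring. The histone deacetylase Hdac1 fell (-0.21 ± 0.04, limma adjusted p = 0.0113) but stood at 0.04 with median centring. Without the 12 h array Runx1 (0.20), Cebpb (0.16), Brca1 (0.16), Nfix (0.14), Notch1 (0.16) and Hdac1 (-0.21) lost their calls. Without the 24 h array Cebpb (0.15), Brca1 (0.13) and Notch1 (0.11) did, and with the scanner's processed signals Cebpb (0.18), Brca1 (0.13), Nfix (0.27) and Notch1 (0.23) did. Runx1 stood at 0.01 with median centring and Brca1 at 0.09 without the filter on dim probes, and neither passed there. Elf5 and Gata3, which mark the milk-producing lineage of the mammary gland, were not well above background in either channel on any array.

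Over all these lists, 68 of 124 genes were measured on all arrays, of which 18 rose, 12 fell and 38 did not pass, where 20% of all genes rose and 7.86% fell. Without the 12 h array 4 rose and 2 fell, and the balance of rises and falls depended on the scaling: 7 rose and 6 fell with the scanner's processed signals, and 26 rose and 21 fell with median centring. At least 25% higher in treated cells were 2 of 70 genes at 6 h, 5 of 71 at 12 h and 5 of 69 at 24 h, where 1.79, 1.39 and 2.72% of all measured genes were. At least 20% lower in treated cells, the same fold downward, were 0, 1 and 2 genes, where 0.725, 0.723 and 1.46% of all measured genes were.

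**Figure D5:**
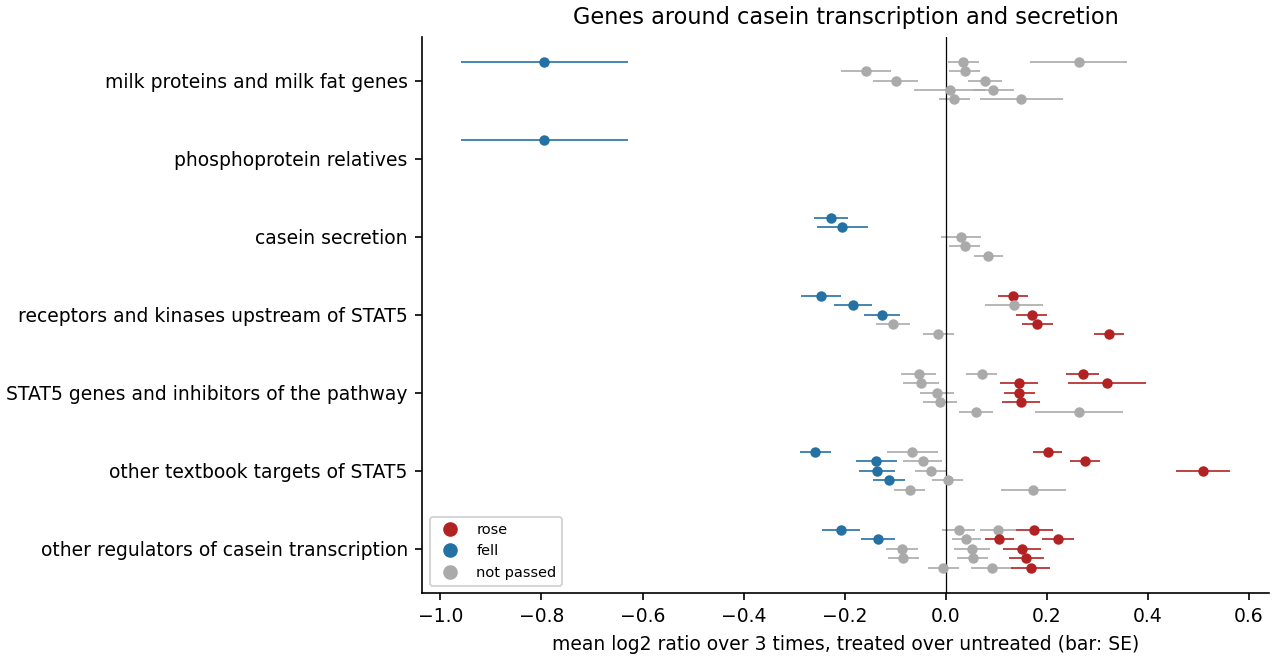
Mean log2 ratio over the 3 times, treated over untreated cells (horizontal axis), for each gene of the 7 lists measured on all arrays, with its standard error (bar). Red genes rose and blue genes fell in limma's test at an adjusted p under 0.05, and grey genes did not pass. The means ran from -0.79 (Spp1, which stands in the upper 2 lists) to 0.51 (Id1).

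Markers of mammary epithelium and of several blood cell types were examined as well. Of 18 markers of mammary epithelium, 2, 3 and 3 were above background in treated cells at 6, 12 and 24 h, against 2, 4 and 3 in untreated cells, and their summed signal after background subtraction was 526 to 582 in treated cells and 940 to 996 in untreated cells. Esr1 and Krt17 were above background on all arrays in both channels, while Elf5, Prlr, Cdh1, Krt5, Krt18 and Areg were so on none. Esr1, the estrogen receptor, had ratios of 0.26, 0.16 and 0.34 and rose (mean 0.25 ± 0.04, limma adjusted p = 0.00737), but did not pass with median centring (0.07), and Krt17 did not pass (0.05, and -0.70 with median centring). Of 13 markers of T and natural killer cells, Thy1 and Nkg7 were measured on all arrays and did not pass (both -0.09). Their summed signals were 2385 to 3091 in treated and 1594 to 1874 in untreated cells. The 6 B cell markers summed to 10323 to 13219 in treated and 4556 to 5585 in untreated cells, and Ighm, the 1 measured on all arrays, did not pass (-0.02, and 0.33 with median centring). The 8 mast cell markers summed to 166 to 218 in treated and 373 to 392 in untreated cells. Hdc, the 1 mast cell marker measured on all arrays, had ratios of -0.10, -0.32 and -0.66 and fell (mean -0.36 ± 0.09, limma adjusted p = 0.0300), but its call was lost without the 12 h array (-0.38), with the scanner's processed signals (-0.77), with plain background subtraction (-0.48) and without the filter on dim probes (-0.36). The 14 myeloid and hematopoietic markers summed to 128768 to 131473 in treated and 52817 to 62825 in untreated cells. These are raw sums in which the channels also differ by dye. Of the 14 myeloid markers measured, 4 rose, 5 fell and 5 did not pass, where 20% of all genes rose and 7.86% fell. The granule proteins Mpo (mean -0.67 ± 0.14, limma adjusted p = 0.0173) and Elane (-0.62 ± 0.04, limma adjusted p = 0.00338) fell and the integrin Itgam rose (0.38 ± 0.03, limma adjusted p = 0.00338). The transcription factor Spi1 (-0.29 ± 0.04, limma adjusted p = 0.00497), the granule protease Prtn3 (-0.28 ± 0.04, limma adjusted p = 0.00531) and the M-CSF receptor Csf1r (-0.13 ± 0.03, limma adjusted p = 0.0195) fell too, and Prtn3 stood at 0.04 with median centring. Kit, Csf2ra and Hoxa9 were the other markers that rose. Mpo lost its call with the scanner's processed signals (-0.65) and with median centring (-0.17). The part of all these markers in the casein ratios was not tested. Hoxa9 itself had 0.35, 0.21 and 0.11 and rose (mean 0.22 ± 0.05, limma adjusted p = 0.0160) but did not pass without the 12 h array (0.23) or with the scanner's processed signals (0.27).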

How the data were processed

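Gene expression in treated (Cy5) and untreated (Cy3) MigA9 cells was measured on 3 two-colour Agilent arrays, 1 for each time. The authors' deposited scanner files, made with Agilent Feature Extraction 9.1.3.1 per the submitters' processing notes, give, for both channels, the foreground intensity, the background intensity and flags for saturation, background and outliers, per the file headers. The deposited values of the series are the same log10 ratios as in the scanner files (largest difference 0).

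The log2 ratios used here were computed from the deposited intensity. In limma 3.58.1 (R 4.3.3, with data.table, version 1.17.8), normexp with an offset of 50 was applied to mean foreground and median background signals, then loess within each array. Channel levels were scaled between arrays by quantiles of the mean intensity. The offset draws ratios of dim probes toward 1. Control spots and outlier spots (37, 36 and 52 at 6, 12 and 24 h) were left out, and measured probes of a gene were averaged. Probes were named through RefSeq by accession (22864), symbol (6732) or synonym (3498), and 8080 kept the file's name. The mean over the 3 times was tested with limma (intercept, eBayes, Benjamini-Hochberg adjustment over 10957 genes at 0.05), after tests on simulated data. Python 3.11.15 with matplotlib 3.10.9, pandas 2.3.3 and numpy 2.4.6 gave tables and figures.

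Named genes were the caseins, from each list up to 6 genes with the largest absolute mean ratio, Stat5a, Stat5b, Hoxa9, Csf2rb and Cish, the measured neighbours of the cluster, and the 5 genes nearest to Csn1s2a in pattern. The result of 1 gene that this rule selects is not reported here. Csf1r and the genes named as not measured on all arrays, or as not well above background, were chosen after their values were seen. The members and lists were chosen with earlier results of these data known. Alternatives were run for the background, the normalisation, dim probes, multiple probes, the pixel summary, saturated spots, the fold threshold, array weights and each array left out.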

Additional observations from a re-analysis of the deposited data

How the results depend on the processing

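The caseins were described from single arrays, the treated Csn2 spot at 24 h is limited by saturation, Csn1s1 and Csn3 are limited by signal near background, and arrays without a dye swap limit every ratio. No paired analysis was possible because each time had 1 array and replicate numbers name a sample only in accession order. Which probes the median is taken over was chosen after seeing the data: median centring on all spots, run first, moved the median of all genes to 0.87, 0.84 and 0.88 at 6, 12 and 24 h, against 0.03, 0.02 and 0.03 with loess, because most spots are dim. Centring on the measured probes, which gave -0.04, -0.03 and -0.04, was then added and is what the text calls median centring. Changes below under the all-spot version are to be read relative to its shift.

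Csn1s2a had log2 ratios of 0.39, 1.10 and 1.79, with 1.4999, 2.16 and 2.99 from centring on all spots, 0.59, 1.29 and 2.06 from centring on measured probes, and, at 12 and 24 h, 1.19 and 1.97 with the scanner's processed signals and 1.15 and 1.87 with plain background subtraction. Csn2 had 0.02, 0.43 and at least 0.58, with 1.59, 1.87 and at least 2.18 from centring on all spots, 0.69, 0.99 and at least 1.252 from centring on measured probes, and 0.10, 0.49 and at least 0.66 with the scanner's processed signals. At 6 h it stood at -0.021 with the median of pixels. Without the filter on dim probes, with the brightest probe and with saturated spots at their value, both caseins were unchanged, since each has 1 probe above background.

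Of the listed genes, 2, 5 and 5 were at least 25% higher in treated cells at 6, 12 and 24 h. These counts were 66, 67 and 65 with centring on all spots, 17, 15 and 21 with centring on measured probes and 0, 0 and 1 at 1.5-fold. At 6 h the count was 4 with the scanner's processed signals and 1 without the filter, and at 24 h it was 10 with the scanner's processed signals and 10 with plain subtraction. The genes at least 20% lower numbered 0, 1 and 2, and 9, 6 and 9 with the scanner's processed signals, 3, 2 and 4 with plain subtraction and 13, 10 and 8 with centring on measured probes. With the brightest probe 1 was lower at 6 h and 2 at 12 h, without the filter 2 at 12 h, with centring on all spots 0 at 12 and 24 h, and at 1.5-fold 1 at 24 h.

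Over all genes, 205, 160 and 315 were at least 25% higher, against 688, 662 and 955 with the scanner's processed signals, 465, 379 and 679 with plain subtraction, 9896, 9961 and 10053 with centring on all spots, 1782, 1366 and 1818 with centring on measured probes and 15, 12 and 39 at 1.5-fold. The genes at least 20% lower numbered 83, 83 and 169, against 799, 735 and 963 with the scanner's processed signals, 157, 161 and 307 with plain subtraction, 2, 4 and 1 with centring on all spots, 3336, 3212 and 3464 with centring on measured probes and 9, 11 and 26 at 1.5-fold. That the offset adds to both channels narrows the ratios by construction, and the other causes were not tested.

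In the test of the mean, 18 listed genes rose and 12 fell, against 7 and 6 with the scanner's processed signals, 67 and 0 with centring on all spots, 26 and 21 with centring on measured probes, and 28 and 20 with array weights. Leaving out 1 array gave 4 to 22 rises and 2 to 10 falls, the lowest without the 12 h array. Over all genes 2196 rose and 861 fell, against 633 and 634 with the scanner's processed signals, 10795 and 1 with centring on all spots, 4153 and 4477 with centring on measured probes and 4187 and 2122 with array weights. Leaving out 1 array gave 404 to 2289 rises and 143 to 956 falls. Of the 35 named genes that passed, 21 lost the call without the 12 h array, where fewer arrays were fitted, 6 without the 24 h array, 2 without the 6 h array and 17 with the scanner's processed signals, and 0 changed direction under these. Array weights gave a call to 15 of the 25 named genes that did not pass. Centring on measured probes did so for 8, leaving out the 6 h array for 7 and the brightest probe for 5. With the scanner's processed signals and without the 12 h array all 25 stayed without a call.

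Direction changed for some genes with median centring. From measured probes the means were -0.20 for Atp2b1, -0.43 for Atp2c1, -0.18 for Bcl2l1, 0.15 for Ccnd3, 0.34 for Cish, -0.30 for Dck, 0.037 for Hdac1, 0.33 for Ighm, -0.70 for Krt17, -0.48 for Mob1b, -0.24 for Nfix, -0.041 for Notch1, 0.041 for Prtn3, 0.39 for Scd2, 0.28 for Slc39a7 and 0.11 for Stat5a. From all spots, where 0.89 is the median of the mean over all genes, they were 1.06 for Ccnd3, 1.24 for Cish, 0.71 for Csf2rb, 0.71 for Elane, 0.79 for Fam20c, 1.01 for Grsf1, 0.94 for Hdac1, 0.21 for Hdc, 1.23 for Ighm, 0.13 for Jak3, 1.01 for Mfge8, 0.73 for Mpo, 0.55 for Nkg7, 0.37 for Pim1, 0.94 for Prtn3, 1.29 for Scd2, 1.18 for Slc39a7, 0.16 for Spi1, 0.25 for Spp1, 1.01 for Stat5a, 0.73 for Thy1, 0.77 for Tyk2 and 1.01 for Ythdc1. These are shifted upward by construction, and the cause of the others was not tested.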
